A study of Mus musculus with 19 samples.

Results

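Blastoids are aggregates of stem cells that organise into a structure resembling the blastocyst, the embryo at the stage of implantation. The comparison asked how the transcriptome of blastoids after 4 days of culture differed from that after 1 day. It covered 3 libraries of day 4 and 3 of day 1, which is 6 of the 19 libraries in the series, and every gene in the count table. Both groups came from the mouse embryonic stem cell line TT2, grown on a layer of inactivated mouse embryonic fibroblasts (feeder cells). The labels list all libraries of both days as treated for 6 h with 20 nM pladienolide B (PlaB), which targets the spliceosome through SF3B, so PlaB does not distinguish them. The sources give 3D microwell culture of 4 days for one group and of 1 day for the other, and do not say for these libraries whether PlaB was given before the cells were aggregated. Only 1 cell line was used, and the blastoid medium is not given in the sources used here. Polyadenylated RNA of whole samples was converted to full-length cDNA and amplified with Smart-seq2. The values are therefore averages over all cells of a sample, and fewer cells of a type and less RNA per cell cannot be told apart. Nothing in the labels says whether the replicates were separate cultures. The p-values of genes come from 1 fit of all 15 blastoid libraries, so they reflect the spread among replicates of all days. That spread may be technical.

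In the blastocyst the outer layer, the trophectoderm, is a polarised epithelium. It seals itself with tight junctions, pumps fluid into the cavity and gives rise to the placenta. The inner cell mass holds the pluripotent epiblast, marked by Nanog, Pou5f1 and Sox2, and the primitive endoderm, marked by Gata6, Gata4 and Sox17. Blastoids are used to follow how stem cells enter these fates outside an embryo.

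The libraries held 7607021, 6844130 and 6563862 counts on day 4, against 6816649, 3684787 and 6750636 on day 1. Every pair of replicates differed by more than counting error. Of 15121 genes with enough counts to test, 1460 (9.66%) were higher on day 4 and 1600 (10.6%) were lower, at an adjusted p under 0.05 with edgeR's quasi-likelihood test. At least 2-fold changes made up 908 (6.0% of tested genes) of the higher and 1266 (8.37%) of the lower genes. The median log2 fold change over all tested genes was 0.01. Here and below a log2 fold change is day 4 minus day 1, given ± its standard error, levels are counts per 1e6 reads scaled by TMM (CPM), and p-values of genes are adjusted ones from edgeR. The 3 libraries of day 4 lay all above the 3 of day 1 for 21.3% of genes and all below them for 20.6%. The numbers of calls depended on single libraries. Without day 4 replicate 1 there were 657 higher and 1003 lower genes, without day 4 replicate 2 960 and 1092, without day 1 replicate 1 615 and 950, and without day 1 replicate 2 832 and 1132. Scaling by total counts alone moved the median log2 fold change to -0.11 and left 1037 higher and 1979 lower genes, so that 34.4% of the calls were higher instead of 47.7%.

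Between 39.8% and 44.4% of the tested members were higher on day 4 in the lists of trophoblast markers (keratins left out), tight junctions, desmosomes and adherens junctions, cell polarity, glycolysis and the response to low oxygen, and ribosomal proteins. Of the fibroblast markers 75% were lower, as were several core pluripotency genes and the splicing genes Sf3b4 and Snrpc. The plot of gene lists shows the share of each list called in either direction beside the share over all tested genes.

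**Figure D1:**
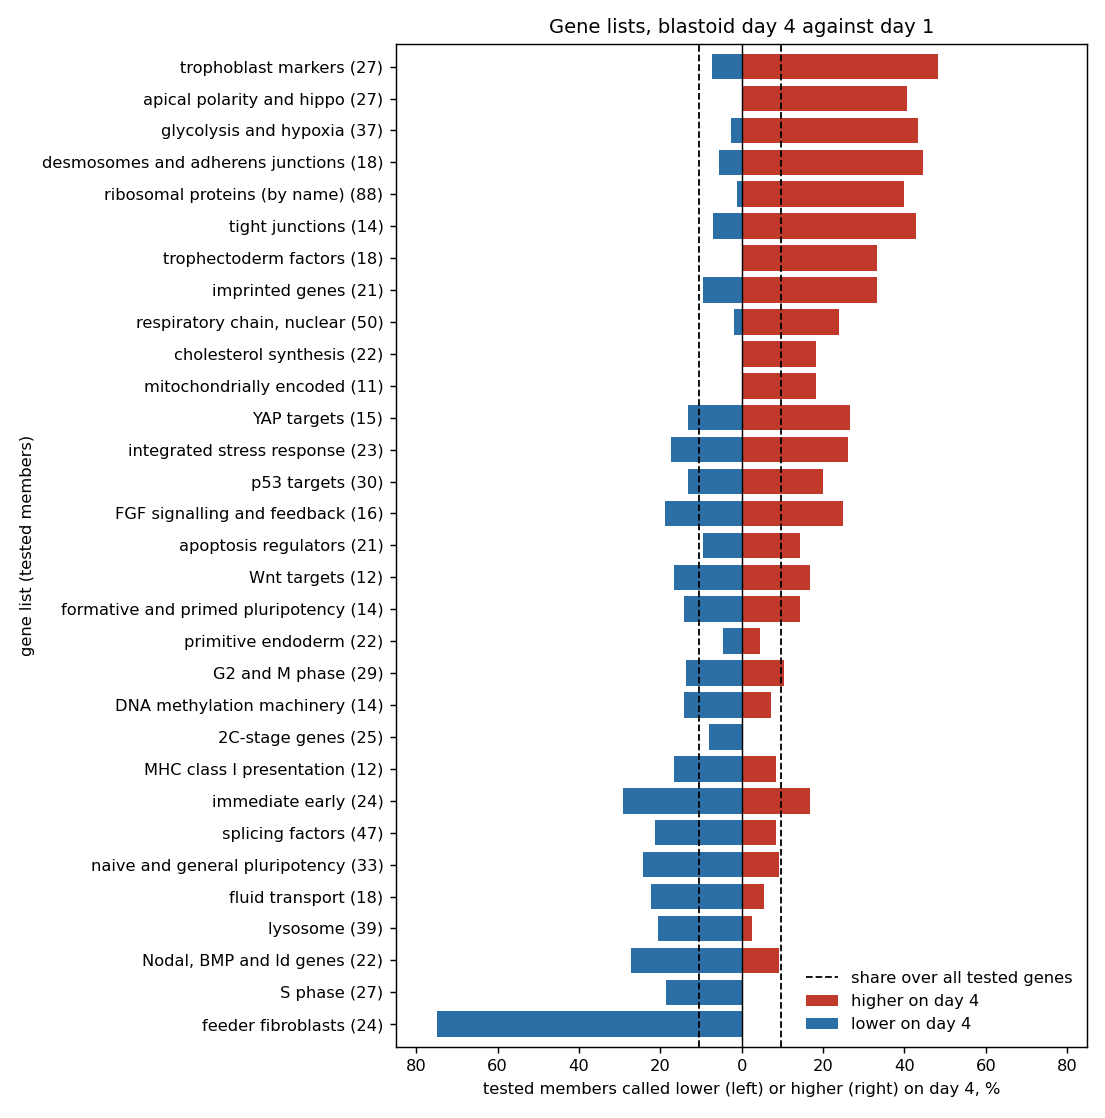
Share of the tested members of each gene list called higher (right, red) or lower (left, blue) on blastoid day 4 against day 1 (horizontal axis in percent; edgeR, adjusted p under 0.05), with the number of tested members after each name. Dashed lines mark the shares over all tested genes, 9.66% higher and 10.6% lower; lists with fewer than 10 tested members are not drawn, and the trophoblast list is drawn with its 4 keratins.

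The largest increases by size, taken among non-overlapping genes of at least 10 CPM, were led by Serpinb9e, a member of a serine protease inhibitor cluster. It stood at 8.92, 18 and 15.4 CPM on day 4, against 0, 1.18 and 0.554 CPM on day 1 (log2 fold change 4.83 ± 0.80, adjusted p = 0.00068). This gene has near-identical copies in its cluster, so its own share of the reads is uncertain. Rhox9 and Rhox6, homeobox genes of the X-linked Rhox cluster that are expressed in the placenta, were next among the abundant genes. Rhox9 (chromosome X, 37899097 to 37901770 of GRCm38) was at 651, 634 and 692 CPM on day 4, against 34.2, 41.7 and 52.5 CPM on day 1 (3.94 ± 0.34, adjusted p = 4.67e-07). Rhox6 (chromosome X, 37826910 to 37829857) was at 991, 898 and 974 CPM on day 4, against 77.1, 69.3 and 90.1 CPM on day 1 (3.60 ± 0.31, adjusted p = 5.01e-07). All 3 day 4 libraries lay far above all 3 day 1 libraries for both genes, although the division of reads between these paralogs is uncertain. Also in this group were Arhgef6 (3.88 ± 0.46), the gene of a guanine nucleotide exchange factor, the actin-associated adaptor gene Afap1l2 (3.88 ± 0.53) and Nxf7 (3.86 ± 0.32), of the nuclear RNA export factor family. Zxdb (3.46 ± 0.48), a zinc-finger gene with a close copy, Tmprss2 (3.46 ± 0.38), the gene of a membrane serine protease, Adm (3.41 ± 0.46), which encodes the vasodilator peptide adrenomedullin, and Ppl (3.41 ± 0.35), which encodes the desmosomal linker periplakin, completed the 10.

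Of 23 tested trophoblast markers other than keratins 10 rose (43.5%, beside 9.66% over all genes), 2 fell and 11 did not pass. Their median log2 fold change was 1.07 beside 0.01 over all genes. Among those that rose, Rhox6, Rhox9 and Plac1 are X-linked, and 19.5% of all tested X-linked genes were higher. Members that did not pass included Dppa1 (1.51), Wnt7b (1.33), Anxa2 (0.10), Cited1 (0.05), Lgals3 (-0.60) and Tspan8 (-0.92). Plac1, an X-linked gene needed for normal placental growth, was at 93.4, 85.9 and 63.8 CPM on day 4, against 9.12, 6.13 and 19.7 CPM on day 1 (2.77 ± 0.34, adjusted p = 1.45e-05). Peg10, a retrotransposon-derived imprinted gene required for the placenta, was at 278, 313 and 268 CPM on day 4, against 61.2, 76.2 and 127 CPM on day 1 (1.70 ± 0.30, adjusted p = 0.000695). The groups did not overlap for either gene. Fgfr2, the receptor through which FGF4 keeps trophoblast stem cells dividing, rose by 1.69 ± 0.32 (adjusted p = 0.00115). Lower members were Ptges, a prostaglandin E synthase gene (-2.33 ± 0.36, adjusted p = 0.000194), and the signalling gene Bmp4 (-2.14 ± 0.31, adjusted p = 0.000101). The list also holds 4 keratins, which are left out of these counts because their levels were used to choose the days.

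Among the trophectoderm transcription factors, 6 of 18 tested genes rose and none fell (median 0.37). Gata3, which acts beside Cdx2 in specifying the trophectoderm (chromosome 2, 9857078 to 9890034), was at 12.1, 9.83 and 8.57 CPM on day 4, against 2.75, 3.30 and 2.21 CPM on day 1 (1.90 ± 0.35, adjusted p = 0.000851). Tfap2c, a trophectoderm factor of the AP-2 family, was at 40.0, 36.7 and 32.7 CPM on day 4, against 13.7, 15.8 and 14.9 CPM on day 1 (1.30 ± 0.28, adjusted p = 0.00319). Gata2, a partner of Gata3 in trophoblast, rose by 1.15 ± 0.25 (adjusted p = 0.00307). For these 3 genes no day 1 library reached the lowest day 4 library. Grhl1, a grainyhead factor of epithelia, rose by 1.80 ± 0.42 (adjusted p = 0.00485), and Dlx3, a homeobox gene needed in the placenta, by 2.23 ± 0.60 (adjusted p = 0.0122). Dlx3 was not called without day 4 replicate 2 or day 1 replicate 1. The defining gene of the lineage, Cdx2, was too low to test, at 1.44, 0.683 and 0.726 CPM on day 4 and 1.12, 0.236 and 0.831 CPM on day 1. Elf5, the trophoblast stem cell factor, was too low as well, at 0.393, 0.683 and 1.31 CPM on day 4 and 0.5, 0.707 and 0.138 CPM on day 1. Eomes (-0.27 ± 0.37, adjusted p = 0.648), Tead4 (-0.56 ± 0.37, adjusted p = 0.303) and Hand1 (-0.35 ± 0.46, adjusted p = 0.631) did not pass. Of the 5 defining trophectoderm markers, Gata3, Tfap2c, Krt8 and Krt18 were thus measured on both days, and Cdx2 was too low to test.

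**Figure D2:**
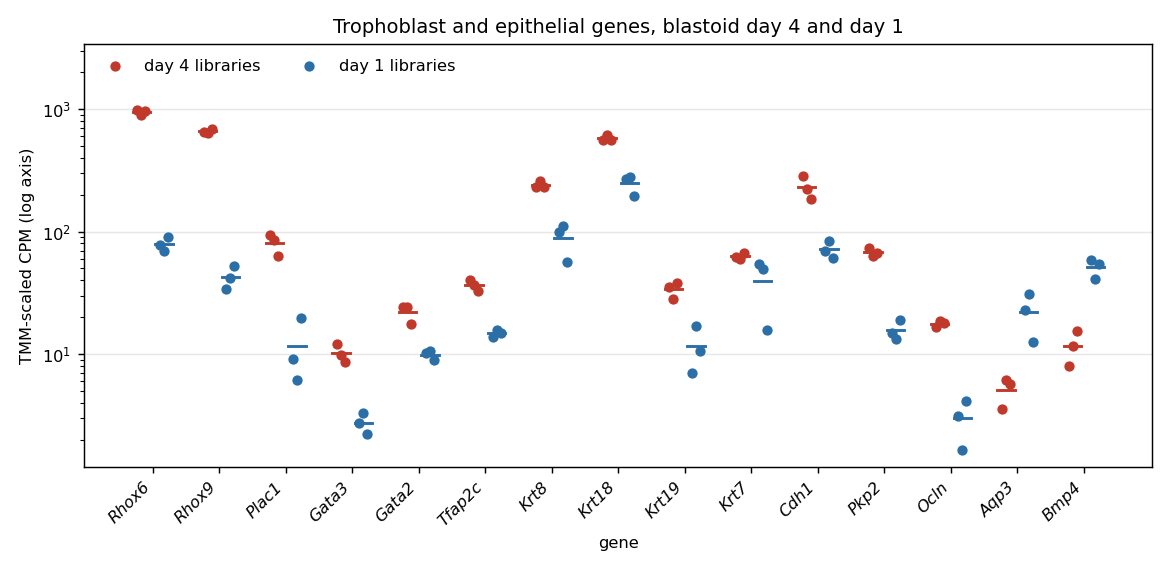
TMM-scaled CPM (log axis) of 15 trophoblast and epithelial genes in each of the 3 day 4 libraries (red, left of each pair) and the 3 day 1 libraries (blue, right); horizontal lines are group means. Day 4 lay above day 1 in all libraries for the first 13 genes from Rhox6 to Ocln, and below day 1 for Aqp3 and Bmp4.

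Keratins 8, 18, 19 and 7 form the intermediate filaments of simple epithelia and mark trophectoderm. Both days were set side by side because keratins and GC-rich genes were known to be high on each and low on day 3, so the levels of both are a description, and the difference between the days is given with its 95% interval and no p-value. Krt18 was at 557, 612 and 564 CPM on day 4, against 272, 277 and 197 CPM on day 1. Krt8 was at 233, 258 and 231 CPM on day 4, against 99.5, 112 and 56.6 CPM on day 1. Krt19 was at 35.5, 28.3 and 38.2 CPM on day 4, against 6.99, 17.0 and 10.7 CPM on day 1. The day 4 libraries were close to each other and above all day 1 libraries, and on day 1 replicate 3 was the lowest for Krt8 and Krt18. The log2 differences were 1.22 (95% interval 0.62 to 1.81) for Krt18, 1.43 (0.82 to 2.04) for Krt8 and 1.59 (0.91 to 2.27) for Krt19. Krt7, at 61.6, 59.7 and 66.5 CPM on day 4 and 54, 49.1 and 15.6 CPM on day 1, had an interval of -0.11 to 1.44, which holds both 0 and a change of more than 2-fold. Krt23, a keratin of low level, was at 0.262, 0.82 and 0.871 CPM on day 4, against 0.375, 4.01 and 4.57 CPM on day 1, with overlapping libraries. Krt8 overlaps Gm36026 and the strand setting of the counting is unknown, so its count is uncertain.

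Between these days the keratins passed through a minimum. On day 3, Krt8 was at 8.31, 12.7 and 11.4 CPM, Krt18 at 21.4, 30.5 and 24.4 CPM, and Krt19 at 0.678, 0.907 and 0.698 CPM. All day 3 libraries lay below all libraries of day 1 and day 4 for these genes. An index of GC content had the same low point. This index, the median log2 deviation of the 25% of genes richest in GC minus that of the 25% poorest in GC, was 0.32, 0.24 and 0.45 on day 4, against 0.92, 1.02 and 0.39 on day 1. On day 3 it was -0.52, -0.64 and -1.19. The day 4 mean was 0.44 lower than the day 1 mean, with overlapping libraries, and is given with no test. Within the comparison of day 4 with day 1, the 20% of genes with the lowest GC content had a median log2 fold change of 0.23, and the 20% with the highest one of -0.36. With each library's trend on GC content removed, 1478 genes were higher and 1726 lower, of which 1239 and 1415 were among the genes called before. The part of GC content in the keratin levels was not tested.

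**Figure D3:**
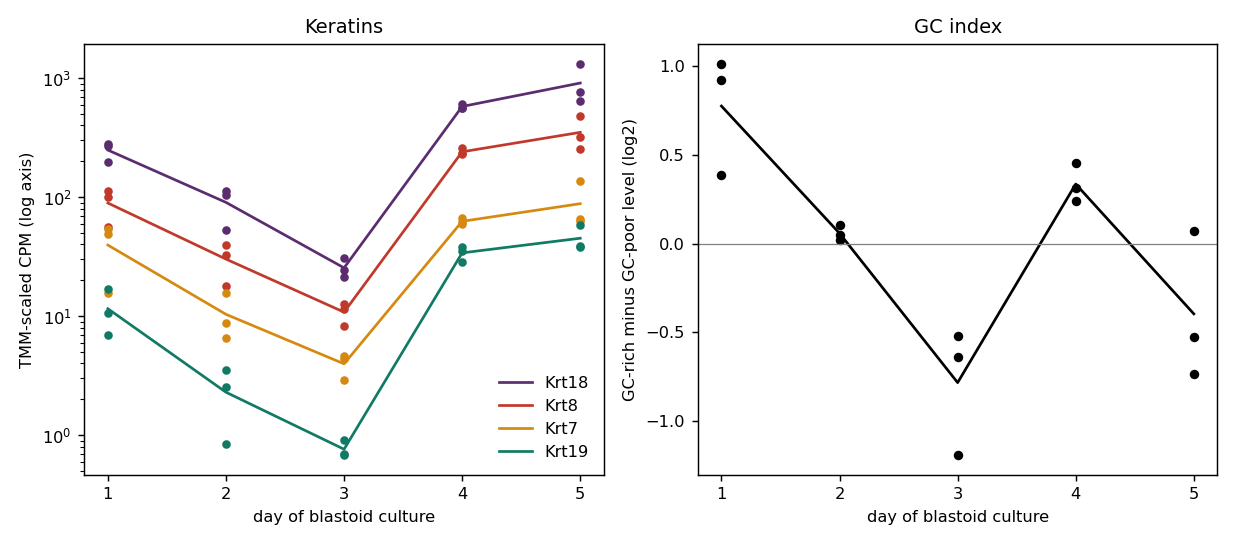
Left, TMM-scaled CPM (log axis) of Krt18, Krt8, Krt7 and Krt19 in each of the 3 libraries per day (points) with the daily mean (line) over days 1 to 5 of blastoid culture; right, the level of GC-rich minus GC-poor genes (log2) per library (points) with the daily mean (line). Both have their low point on day 3, and on day 4 the keratins were above their day 1 level while the GC index lay between 0.24 and 0.45.

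Junction genes were higher on day 4. Of 14 tested tight junction genes 6 rose and 1 fell (median 0.87), and of 18 genes of desmosomes and adherens junctions 8 rose and 1 fell (median 0.69). Ocln, which encodes the tight junction strand protein occludin, was at 16.5, 18.6 and 18 CPM on day 4, against 3.12, 1.65 and 4.15 CPM on day 1 (2.51 ± 0.32, adjusted p = 2.83e-05). Marveld2, the gene of tricellulin at the corners where cells meet, was at 20.1, 23.4 and 16.0 CPM on day 4, against 4.62, 5.19 and 1.94 CPM on day 1 (2.36 ± 0.44, adjusted p = 0.00104). The groups stood apart for both genes. Cgn, which encodes the cytoplasmic plaque protein cingulin (1.38 ± 0.25, adjusted p = 0.000837), and Cldn7 (1.28 ± 0.31, adjusted p = 0.00702), a claudin, rose as well. Cldn4, the claudin of the trophectoderm, was the member that fell (-1.11 ± 0.39, adjusted p = 0.0466), a call that ended when any library other than day 1 replicate 3 was left out, with GC trends removed, with a block for the replicate number and with thinned counts. Tjp1, the gene of the scaffold ZO-1, did not pass (0.67 ± 0.28, adjusted p = 0.0994).

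Among the adhesion genes, Pkp2, the gene of the desmosomal plaque protein plakophilin 2, was at 74.1, 63.8 and 66.9 CPM on day 4, against 14.9, 13.2 and 18.8 CPM on day 1 (2.12 ± 0.26, adjusted p = 1.47e-05). Cdh1, the gene of E-cadherin, was at 283, 224 and 185 CPM on day 4, against 70.1, 84.4 and 60.3 CPM on day 1 (1.69 ± 0.32, adjusted p = 0.00117). Dsp, which encodes desmoplakin, the link from desmosomes to keratin filaments, was at 46.4, 56.8 and 46.2 CPM on day 4, against 14.2, 20.0 and 21.3 CPM on day 1 (1.43 ± 0.29, adjusted p = 0.00185). All 3 genes had every day 4 library above every day 1 library. Jup, which encodes plakoglobin, a plaque protein shared by desmosomes and adherens junctions, went the other way, with 5.51, 5.05 and 8.42 CPM on day 4, against 21.4, 30.2 and 17.4 CPM on day 1 (-1.85 ± 0.31, adjusted p = 0.000375).

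Genes of fluid transport did not follow the junctions. Of 18 tested members 1 (5.56%) rose and 4 (22.2%) fell, beside 9.66% and 10.6% over all genes (median -0.25). Aqp3, a water and glycerol channel gene of the trophectoderm, was at 3.54, 6.15 and 5.66 CPM on day 4, against 23, 30.9 and 12.6 CPM on day 1 (-2.10 ± 0.37, adjusted p = 0.000577). All day 4 libraries of Aqp3 lay below all day 1 libraries. Fxyd5, a regulator of the sodium pump, fell by 2.53 ± 0.37 (adjusted p = 0.000102), whereas the pump's beta subunit Atp1b1 did not pass (-0.26 ± 0.23, adjusted p = 0.457). The higher member was Car2, a carbonic anhydrase gene (0.87 ± 0.28, adjusted p = 0.0313), whose call ended in 7 alternatives, among them leaving out any library other than day 1 replicate 2.

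Apical polarity complexes tell outer from inner cells of the embryo, and through angiomotins and the LATS kinases they set the activity of the Hippo pathway. Of 27 tested genes of both systems 11 rose and none fell (median 0.54). Without day 4 replicate 1 only 5 passed, and without day 1 replicate 1 6 passed. Amot, the X-linked gene of angiomotin, was at 77.6, 65.2 and 28.5 CPM on day 4, against 5.62, 16.7 and 12.0 CPM on day 1 (2.35 ± 0.41, adjusted p = 0.000598). Amotl2, its relative, was at 58.4, 54.6 and 44.7 CPM on day 4, against 17.0, 12.5 and 15.2 CPM on day 1 (1.81 ± 0.30, adjusted p = 0.000375). Neither gene's groups overlapped, and day 4 replicate 3 was the lowest of its day for both. Pard6g (1.56 ± 0.31, adjusted p = 0.00158) and Prkci (0.92 ± 0.21, adjusted p = 0.00473), the genes of PAR6 gamma and of the atypical protein kinase C that it binds, rose, as did the Crumbs partner gene Mpp5 (1.01 ± 0.20, adjusted p = 0.00167). Lats2 rose by 1.46 ± 0.37 (adjusted p = 0.00817), but did not pass when day 4 replicate 1 was left out. Of 15 tested targets of YAP, the coactivator that Hippo signalling restrains, 4 (26.7%) rose and 2 (13.3%) fell (median 0.22). Over all genes 9.66% rose and 10.6% fell. The YAP targets were divided, with Ptpn14 (1.47 ± 0.24, adjusted p = 0.000328) higher and Cyr61, a matricellular protein gene (-2.64 ± 0.42, adjusted p = 0.000242), lower. Amotl2 and Lats2 are in this list too.

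The pluripotency genes did not move as a block. Of 33 tested naive and general pluripotency genes 3 (9.09%) rose and 8 (24.2%) fell, beside 9.66% and 10.6% over all genes (median -0.13). Without day 4 replicate 1 or without day 1 replicate 1 5 fell. The 3 higher ones dropped to 0 or 1 when day 4 replicate 1, day 4 replicate 3, day 1 replicate 1 or day 1 replicate 2 was left out. Nanog, the homeobox gene of the naive epiblast (chromosome 6, 122707489 to 122714633), was at 90.2, 85.4 and 127 CPM on day 4, against 244, 311 and 379 CPM on day 1 (-1.63 ± 0.22, adjusted p = 5.75e-05). Utf1, a chromatin-bound factor of undifferentiated cells, was at 25.1, 44.5 and 60.8 CPM on day 4, against 341, 257 and 230 CPM on day 1 (-2.67 ± 0.32, adjusted p = 1.43e-05). Every day 4 library was below every day 1 library for both. Pou5f1, the gene of Oct4, was at 4.85, 9.83 and 9.73 CPM on day 4, against 51.0, 31.8 and 32.7 CPM on day 1 (-2.25 ± 0.30, adjusted p = 4.29e-05), but it overlaps Gm19553 and its count is uncertain because the strand setting is unknown. Dppa2 (-1.43 ± 0.24, adjusted p = 0.000494) and the TGF-beta family ligand gene Gdf3 (-1.38 ± 0.31, adjusted p = 0.00386) fell.

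Other core members of the network did not pass. Sox2 was at 84.9, 52.3 and 47.9 CPM on day 4, against 51.7, 43.9 and 46.6 CPM on day 1 (0.38 ± 0.32, adjusted p = 0.425). Zfp42, the gene of Rex1, was at 195, 248 and 308 CPM on day 4, against 357, 334 and 359 CPM on day 1 (-0.48 ± 0.24, adjusted p = 0.156). Sox2 libraries overlapped, and those of Zfp42 did not. Esrrb (0.50 ± 0.24, adjusted p = 0.15) and Klf4 (0.74 ± 0.30, adjusted p = 0.0872) missed the threshold, the first passing with GC trends removed and the second in a fit of the 6 libraries alone. Tdgf1, the Nodal co-receptor gene, stood at -0.03 ± 0.27 (adjusted p = 0.949). In the list of formative and primed pluripotency 2 of 14 genes (14.3%) rose and 2 (14.3%) fell, beside 9.66% and 10.6% over all genes (median 0.21). Otx2, the homeobox gene that drives exit from the naive state, was at 18.5, 10.8 and 12.9 CPM on day 4, against 5.12, 4.01 and 3.18 CPM on day 1 (1.77 ± 0.35, adjusted p = 0.00162). Lef1, a nuclear partner of beta-catenin, rose by 1.19 ± 0.29 (adjusted p = 0.00653), though not without day 4 replicate 1 or day 1 replicate 1. Etv4, an ETS factor downstream of FGF, fell by 1.70 ± 0.34 (adjusted p = 0.00192), and the ligand gene Nodal fell by 1.53 ± 0.34 (adjusted p = 0.00383).

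Few primitive endoderm genes passed. Of 22 tested genes 1 rose and 1 fell (median 0.01). Gata6, which starts this lineage, was at 3.54, 3.96 and 3.19 CPM on day 4, against 1.75, 4.01 and 2.63 CPM on day 1 (0.39 ± 0.42, adjusted p = 0.553), with overlapping groups. Gata4, Sox17 and Foxa2 were too low to test, below 2 CPM in every day 4 library. Pdgfra, the receptor gene that marks the lineage but is also expressed by fibroblasts, was at 5.12, 6.56 and 3.92 CPM on day 4, against 15.2, 17.7 and 3.60 CPM on day 1 (-1.21 ± 0.45, adjusted p = 0.0629). It passed in 5 alternatives, with a log2 fold change of -1.69 without day 1 replicate 3. Sparc, a matrix glycoprotein gene shared with fibroblasts, fell by 1.20 ± 0.29 (adjusted p = 0.00614). Lamb1, a laminin chain gene, rose by 0.95 ± 0.30 (adjusted p = 0.0292), a call lost in 7 alternatives, among them each library left out except day 4 replicate 3.

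Markers of germ layers and of blood or endothelium were few. Of 6 tested mesendoderm genes none rose and 1 fell, the caudal homeobox gene Cdx1 (-2.08 ± 0.40, adjusted p = 0.00117). T, the brachyury gene, lay between 1.16 and 2.10 CPM on day 4 and between 0.472 and 2.49 CPM on day 1. Of 6 tested neural genes none rose and 1 fell, Tubb3 (-1.13 ± 0.39, adjusted p = 0.0459), which lost its call in 6 alternatives. Of 8 tested blood and endothelial genes none rose and 3 fell, and without the libraries of other days in the fit 1 fell. Pecam1, an adhesion gene that stem cells also express, was at 9.97, 14.6 and 13.4 CPM on day 4, against 33.0, 35.1 and 24.1 CPM on day 1 (-1.28 ± 0.28, adjusted p = 0.00309). Lyz2, the lysozyme gene of macrophages, was at 0.656, 0.273 and 0 CPM on day 4, against 69.7, 0.236 and 90.4 CPM on day 1. It was thus high in day 1 replicates 1 and 3 and as low in day 1 replicate 2 as on day 4, so the groups overlapped although the fit called it (-7.31 ± 1.5, adjusted p = 0.00541). Fcer1g, an Fc receptor subunit gene of myeloid cells, was at 0.131, 0.683 and 0.29 CPM on day 4, against 2.75, 0.472 and 3.18 CPM on day 1 (-2.53 ± 0.85, adjusted p = 0.0395), with the same replicate low on day 1. Its call ended with a block for the replicate number and without day 4 replicate 1 or 3 or day 1 replicate 1 or 3. The pan-leukocyte gene Ptprc, the globin gene Hbb-bt and the endothelial cadherin gene Cdh5 stayed below 1 CPM in all 6 libraries.

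2C-stage genes, active at the onset of embryonic transcription in the mouse, mark rare 2C-like cells in stem cell cultures. Of 25 tested members none rose and 2 fell (median -1.09). Without day 1 replicate 2 11 fell, and without day 4 replicate 1 4 fell. Zscan4c was at 7.34, 16.0 and 10.02 CPM on day 4, against 26.6, 2.36 and 58.7 CPM on day 1 (-1.42 ± 0.70, adjusted p = 0.17). Zscan4d was at 7.08, 11.1 and 9.29 CPM on day 4, against 23.5, 1.41 and 63.7 CPM on day 1 (-1.71 ± 0.77, adjusted p = 0.131). For both genes day 1 replicates 1 and 3 were above all day 4 libraries and day 1 replicate 2 was below them. Pramel7, of the PRAME family, had 0 counts on day 4, against 82 on day 1, which is at least 30.6-fold lower against a floor of 3 counts over the group. Usp17le, a deubiquitinase gene, was the other lower member (-3.34 ± 0.71, adjusted p = 0.00262). All of these belong to multi-copy families, so the values of single members are uncertain.

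Fibroblast markers had the lowest median of the 35 lists. Of 24 tested markers none rose and 18 fell, with a median log2 fold change of -2.30. The median level of all 26 listed markers, 2 of them not tested, is given as log2(CPM + 1). It was 2.16, 1.15 and 1.49 on day 4, against 3.38, 3.68 and 2.84 on day 1 (two-sided exact permutation test, p = 0.1, the smallest that 3 against 3 can give). Summed over the list the markers made up 697, 432 and 450 CPM on day 4, against 1872, 2131 and 1336 CPM on day 1. The libraries of both days did not overlap, and day 4 replicate 1 was the highest of its day. Dcn, the gene of the matrix proteoglycan decorin, was at 61.0, 6.01 and 18.3 CPM on day 4, against 328, 347 and 245 CPM on day 1 (-3.43 ± 0.69, adjusted p = 0.00372). Bgn, its relative biglycan, was at 13.1, 2.05 and 5.95 CPM on day 4, against 99.9, 174 and 51.6 CPM on day 1 (-3.93 ± 0.45, adjusted p = 8.4e-06). Both matrix genes were highest in day 4 replicate 1 among the day 4 libraries. The collagen gene Col1a1 fell by 3.03 ± 0.64 (adjusted p = 0.00271) and Col3a1 fell by 2.60 ± 0.46 (adjusted p = 0.000627). The matricellular gene Postn fell by 3.81 ± 0.58 (adjusted p = 0.000179). Col1a2 (-2.33 ± 0.53), Dcn and Lum (-2.26 ± 0.70) did not pass in a fit of the 6 libraries alone, and Lum did not pass without day 4 replicate 1 or day 1 replicate 1 either.

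The 10 largest decreases by size, chosen by the same rule as the increases, included chemokine and cytokine genes. Ccl2, which encodes a monocyte-attracting chemokine that fibroblasts secrete, was at 32.9, 6.97 and 17.9 CPM on day 4, against 751, 737 and 544 CPM on day 1 (-5.13 ± 0.43, adjusted p = 4.67e-07). Cxcl1, a neutrophil-attracting chemokine gene, was at 11.5, 0.956 and 1.6 CPM on day 4, against 148, 148 and 144 CPM on day 1 (-4.94 ± 0.67, adjusted p = 0.000199). Il6, the cytokine gene, was at 0.262, 0.41 and 0.581 CPM on day 4, against 7.12, 27.6 and 23.4 CPM on day 1 (-5.47 ± 0.61, adjusted p = 6.4e-06). No day 4 library reached any day 1 library for these secreted factors. Among the day 4 libraries both chemokine genes were highest in replicate 1, as the fibroblast markers were, whereas Il6 was lowest in replicate 1. The part of feeder cells in the levels of these factors was not tested. Lce1g, of the cornified envelope cluster, was at 0.393, 0 and 0.871 CPM on day 4, against 82.7, 56.6 and 39.7 CPM on day 1 (-7.10 ± 0.61, adjusted p = 4.67e-07). Ch25h, an enzyme gene that makes 25-hydroxycholesterol, had 3 counts on day 4, against 309 on day 1, a scaled ratio of day 1 to day 4 of 115 (95% counting interval 39.1 to 563). The rest of the 10 were the IL-33 receptor gene Il1rl1 (-5.27 ± 0.89), Tm4sf1 (-5.04 ± 0.44), the protease inhibitor genes Serpinb2 (-5.03 ± 1.12) and Slpi (-5.00 ± 1.04), and the steroid dehydrogenase gene Akr1c18 (-4.98 ± 0.78). Serpinb2 and Slpi did not pass in a fit of the 6 libraries alone.

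Snai2, a transcription factor gene of mesenchymal cells, had the smallest adjusted p of all decreases named. It was at 1.97, 1.78 and 1.74 CPM on day 4, against 43.5, 44.1 and 30.6 CPM on day 1 (-4.41 ± 0.28, adjusted p = 9.96e-09). Fgf7, a growth factor gene of fibroblasts, was at 2.89, 0.273 and 0.871 CPM on day 4, against 30.0, 47.9 and 33.4 CPM on day 1 (-4.74 ± 0.44, adjusted p = 9.67e-07). Their decreases went with the fall of the fibroblast list, and the part of feeder cells in them was not tested. Ube2m, which encodes the conjugating enzyme of the ubiquitin-like protein NEDD8, was at 5.64, 5.74 and 6.83 CPM on day 4, against 72.7, 98.8 and 50.7 CPM on day 1 (-3.60 ± 0.34, adjusted p = 9.67e-07).

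A set of Y-linked genes was chosen after their values were seen, so their levels are a description. Ddx3y, Eif2s3y, Uty and Kdm5d together stood at 0.525, 0.273 and 1.89 CPM on day 4, against 25.6, 22.4 and 24.1 CPM on day 1. Their sum was 17.1 to 26.6 CPM on day 2, 9.16 to 24.7 CPM on day 3 and 1.16 to 3.86 CPM on day 5. Ddx3y, an RNA helicase gene, was at 0.393, 0.273 and 1.16 CPM on day 4, against 12.4, 9.90 and 11.8 CPM on day 1 (log2 fold change -4.20 ± 0.67). Kdm5d, a histone demethylase gene, had 0 counts on day 4, against 31 on day 1, at least 11.6-fold lower against a floor of 3 counts over the group. The median level of fibroblast markers was 3.32 to 3.60 on day 2, 2.79 to 3.98 on day 3 and 1.42 to 1.55 on day 5. On both measures every library of days 4 and 5 lay below every library of days 1 to 3. In day 3 replicates 1 and 2 the Y-linked sum, at 9.16 and 15.6 CPM, was already below every day 1 library. The summed fibroblast markers were so too, at 804 and 1019 CPM. Day 3 replicate 3 was not, at 24.7 and 2017 CPM. The median level of the markers differed from their sum here. By the median, day 3 replicate 1 (2.79) lay below every day 1 library, but day 3 replicate 2 (3.13) lay above day 1 replicate 3 (2.84). How much of the Y-linked RNA came from feeder cells was not tested.

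**Figure D4:**
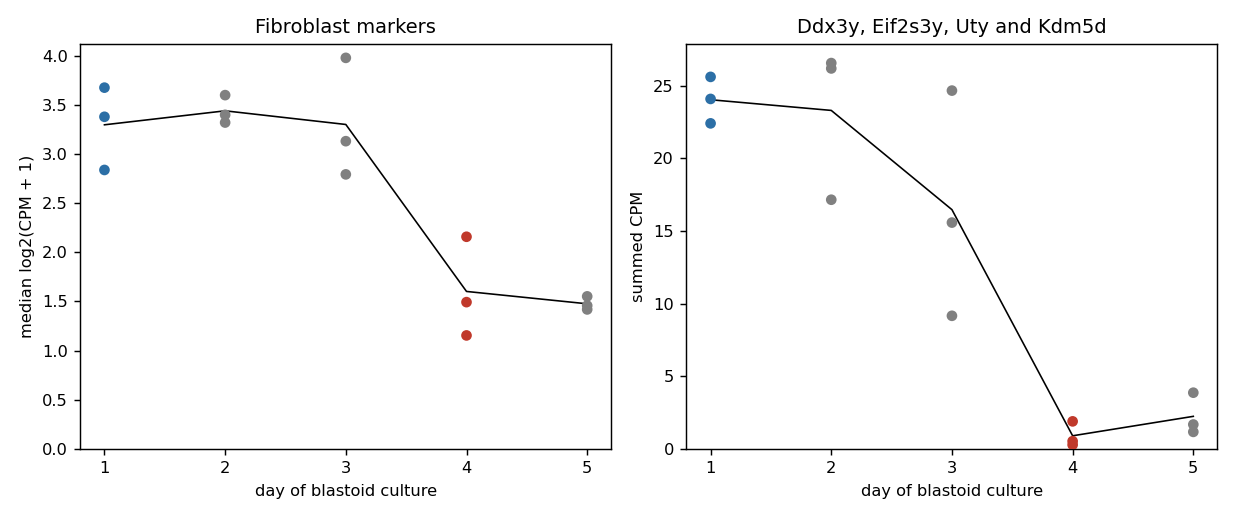
Left, median log2(CPM + 1) of 26 fibroblast markers, and right, summed CPM of the Y-linked genes Ddx3y, Eif2s3y, Uty and Kdm5d, per library (points; day 4 red, day 1 blue, other days grey) with the daily mean (line) over days 1 to 5. Fibroblast markers lay between 1.15 and 2.16 on day 4, against 2.84 to 3.68 on day 1, and the Y-linked sum was at most 1.89 CPM on day 4, against at least 22.4 CPM on day 1.

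When oxygen is low, the EGLN prolyl hydroxylases no longer mark the HIF transcription factors for breakdown. HIF then binds promoters and enhancers with the core ACGTG or GCGTG and raises genes of glucose uptake, glycolysis and mitophagy. Of 37 tested genes of glycolysis and the hypoxia response, 16 rose and 1 fell, with a median of 0.45, and between 15 and 17 were higher under every alternative. Egln3, the hydroxylase gene that is itself a HIF target (chromosome 12, 54178981 to 54203860), was at 46.3, 33.9 and 46.9 CPM on day 4, against 7.49, 7.07 and 8.58 CPM on day 1 (2.45 ± 0.23, adjusted p = 9.67e-07). Pdk1, the kinase gene that keeps pyruvate out of the mitochondrion (chromosome 2, 71873224 to 71903858), was at 185, 139 and 175 CPM on day 4, against 45.5, 42.2 and 47.2 CPM on day 1 (1.88 ± 0.19, adjusted p = 2.95e-06). Bnip3, a mitophagy receptor gene (chromosome 7, 138890836 to 138909519), was at 95.4, 73.2 and 130 CPM on day 4, against 9.49, 17.9 and 19.9 CPM on day 1 (2.67 ± 0.28, adjusted p = 3.47e-06). The groups were far apart for these 3 genes. Egln1, the main oxygen sensor of the family, was at 48.3, 29.9 and 27.4 CPM on day 4, against 7.62, 7.31 and 4.29 CPM on day 1 (2.46 ± 0.28, adjusted p = 8.4e-06).

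The promoter windows of Egln3, Pdk1 and Bnip3 are shown because these genes had small adjusted p-values in the list and hold the core in different numbers. They run from 250 bases before to 50 bases after the annotated start, are taken from RefSeq (GRCm38.p6) on the strand of the gene, and have ACGTG or GCGTG on either strand in capitals. The windows are chr12:54203825-54204124 (minus strand), chr2:71872974-71873273 (plus strand) and chr7:138909457-138909756 (minus strand).
Egln3: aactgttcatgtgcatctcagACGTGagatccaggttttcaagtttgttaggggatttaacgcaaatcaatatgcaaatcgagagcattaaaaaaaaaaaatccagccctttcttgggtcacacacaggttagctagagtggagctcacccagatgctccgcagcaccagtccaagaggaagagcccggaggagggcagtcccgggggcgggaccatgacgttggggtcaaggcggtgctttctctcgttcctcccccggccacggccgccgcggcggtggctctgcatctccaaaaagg
Pdk1: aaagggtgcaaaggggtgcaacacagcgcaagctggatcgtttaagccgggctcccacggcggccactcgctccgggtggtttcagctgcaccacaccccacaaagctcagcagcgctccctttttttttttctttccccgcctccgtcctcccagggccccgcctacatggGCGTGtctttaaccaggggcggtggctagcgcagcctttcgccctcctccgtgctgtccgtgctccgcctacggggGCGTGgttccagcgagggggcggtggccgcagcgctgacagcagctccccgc
Bnip3: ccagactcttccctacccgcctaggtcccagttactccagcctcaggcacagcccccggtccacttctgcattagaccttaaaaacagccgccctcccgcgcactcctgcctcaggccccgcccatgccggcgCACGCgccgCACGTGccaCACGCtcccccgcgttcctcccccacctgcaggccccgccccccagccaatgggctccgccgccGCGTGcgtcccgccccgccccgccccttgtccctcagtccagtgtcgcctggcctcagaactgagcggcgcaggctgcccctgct
The Egln3 window holds 1 match, the Pdk1 window 2 and the Bnip3 window 5, counting each strand of the palindrome in Bnip3, which is also an E-box. Such matches are common. The core was found in 6927 of 10363 tested genes with a window (66.8%), in 12 of 12 list members that rose and had a window, and in 17 of 20 that did not rise (85%). The matches are a description of letters and not of binding.

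Some other members of this list had like changes, while 20 of the 37 tested did not pass. Among those 20 were the glycolytic enzyme genes Gapdh (-0.67), Eno1 (-0.77), Pkm (-0.75), Aldoa (0.22) and Ldha (0.45). Members that are not glycolytic enzymes were among them too. These included P4ha1 (0.72), Slc16a3 (0.53), Vegfa (0.37), Car9 (0.30), Kdm3a (0.23), Bnip3l (0.22), Mxi1 (0.10) and Ak4 (-0.12). Ankrd37, a HIF target gene, was at 19.9, 9.70 and 22.9 CPM on day 4, against 2.87, 2.83 and 2.63 CPM on day 1 (2.65 ± 0.32, adjusted p = 1.33e-05). Adm was at 15.7, 10.9 and 22.4 CPM on day 4, against 0.749, 1.89 and 2.08 CPM on day 1 (adjusted p = 4.38e-05). Pfkfb3, whose product makes an activator of phosphofructokinase, is not in the list and was among the increases with the smallest adjusted p. It was at 19.8, 14.3 and 18.4 CPM on day 4, against 2.25, 1.65 and 2.35 CPM on day 1 (3.03 ± 0.32, adjusted p = 3.28e-06). In these 3 genes the lowest day 4 library was several times the highest day 1 library. The stress-induced gene Ndrg1 rose by 2.20 ± 0.29 (adjusted p = 4.3e-05). Among the members named after their values were seen, the glucose transporter gene Slc2a1 was at 293, 202 and 225 CPM on day 4, against 83.9, 103 and 49.8 CPM on day 1 (1.61 ± 0.26, adjusted p = 0.00024). Pgk1, an X-linked glycolytic enzyme gene, was at 1195, 923 and 1202 CPM on day 4, against 409, 423 and 434 CPM on day 1 (1.39 ± 0.27, adjusted p = 0.00131), and Hk2, a hexokinase gene, rose by 1.65. The member that fell was Hk1, the other hexokinase gene (-1.08), a call that ended with GC trends removed and without day 4 replicate 1 or 2 or day 1 replicate 1 or 2.

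**Figure D5:**
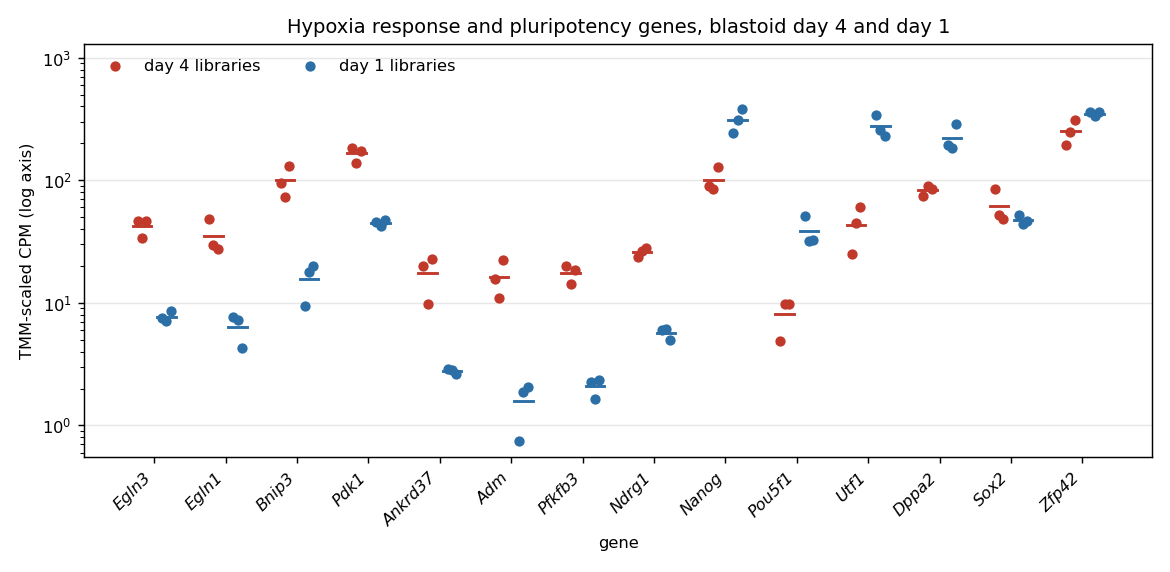
TMM-scaled CPM (log axis) of 8 genes of the hypoxia response and 6 pluripotency genes in each of the 3 day 4 libraries (red, left of each pair) and the 3 day 1 libraries (blue, right); horizontal lines are group means. The 8 hypoxia genes drawn were chosen among those that rose, and were higher on day 4 in all libraries. Nanog, Pou5f1, Utf1 and Dppa2 were lower in all, and Sox2 and Zfp42 did not pass the test.

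Ribosomal protein and respiratory chain genes were higher as lists, with a dependence on single libraries. Of 88 tested ribosomal protein genes 35 rose and 1 fell (median 0.77), but 13 rose without day 4 replicate 1, 21 without day 4 replicate 3, 12 without day 1 replicate 1 and 22 without day 1 replicate 2, whereas a fit of the 6 libraries alone gave 60. Rps27a, which encodes a ubiquitin-ribosomal fusion protein, was at 4508, 2368 and 3160 CPM on day 4, against 1075, 1225 and 1536 CPM on day 1 (1.39 ± 0.27, adjusted p = 0.00122). Rps4x, X-linked, was at 4058, 2648 and 2526 CPM on day 4, against 1037, 1051 and 1510 CPM on day 1 (1.36 ± 0.26, adjusted p = 0.00111). Day 4 replicate 1 was the highest for both, and no library of day 1 reached day 4. These genes have many processed copies, so single members are uncertain. Of 50 nuclear genes of the respiratory chain 12 rose and 1 fell (median 0.26), with 3 higher without day 4 replicate 1 and 4 without day 1 replicate 1. Cox6c, a subunit gene of cytochrome c oxidase, was at 1763, 1008 and 1294 CPM on day 4, against 435, 509 and 502 CPM on day 1 (1.49 ± 0.27, adjusted p = 0.000851). Uqcrb, of complex III, rose by 1.22 ± 0.28 (adjusted p = 0.00426), and Atp5d, the delta subunit gene of ATP synthase, fell by 1.13 ± 0.22 (adjusted p = 0.00126).

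Mitochondrially encoded genes took 4.34%, 6.71% and 4.03% of the counts on day 4, against 2.60%, 2.81% and 4.92% on day 1 (two-sided exact permutation test, p = 0.3). The libraries overlapped through day 1 replicate 3. Of 11 tested genes 2 rose and none fell (median 0.60). mt-Co1, a cytochrome c oxidase subunit gene, was at 17196, 21217 and 15118 CPM on day 4, against 4951, 6051 and 9588 CPM on day 1 (1.38 ± 0.34, adjusted p = 0.00711), and was not called when day 1 replicate 1 was left out. mt-Co3 rose by 1.21 ± 0.36 (adjusted p = 0.0209), though not without day 4 replicate 1 or 2 or day 1 replicate 1 or 2.

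Sterol and lysosome genes differed in direction. Of 22 genes of cholesterol synthesis and uptake 4 rose and none fell (median -0.03), with 1 higher without day 4 replicate 1 and 2 without day 1 replicate 1. Stard4, a sterol carrier gene, was at 85.9, 64.7 and 71.7 CPM on day 4, against 29.1, 38.2 and 36.7 CPM on day 1 (1.10 ± 0.20, adjusted p = 0.000714). Sqle and Hmgcs1, of the synthesis pathway, rose as well, and neither passed without day 4 replicate 1. Of 39 lysosome genes 1 rose and 8 fell (median -0.49). The number lower was 3 without day 4 replicate 1, 5 without day 4 replicate 2, 4 without day 1 replicate 1, 4 without day 1 replicate 2 and 14 without day 1 replicate 3. Ctsb, the gene of the protease cathepsin B, was at 121, 87.4 and 111 CPM on day 4, against 436, 543 and 177 CPM on day 1 (-1.86 ± 0.33, adjusted p = 0.000766). Day 1 replicate 3 was the closest to day 4. Npc2 (-0.89 ± 0.21, adjusted p = 0.00503), which exports cholesterol from lysosomes, and the saposin gene Psap (-1.31 ± 0.32, adjusted p = 0.00738) fell too.

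Signalling genes moved apart. Of 22 tested genes of the Nodal, BMP and Id group 2 rose and 6 fell (median -0.32). Bmp4, whose product sustains Id genes in stem cells, was at 8, 11.6 and 15.4 CPM on day 4, against 58.6, 40.8 and 54 CPM on day 1. Bmpr1a, a BMP receptor gene, was at 172, 145 and 133 CPM on day 4, against 45.8, 60.1 and 69.6 CPM on day 1 (1.36 ± 0.26, adjusted p = 0.00115). The ligand was thus lower and a receptor higher, each without overlap. Bmp8b, another ligand gene, rose by 2.27 ± 0.46 (adjusted p = 0.00195), and Inhbb, an activin subunit gene, fell by 2.28 ± 0.50 (adjusted p = 0.00336). In the FGF list 4 of 16 genes (25%) rose and 3 (18.8%) fell, beside 9.66% and 10.6% over all genes (median 0.06). Only 1 or 2 were higher when any library other than day 4 replicate 3 was left out. Fgf4, which epiblast cells release, was at 46.4, 34.0 and 41.2 CPM on day 4, against 25, 21 and 18.4 CPM on day 1 (0.92 ± 0.25, adjusted p = 0.0129). Fgf4 did not pass when day 4 replicate 1, day 1 replicate 2 or day 1 replicate 3 was left out. Of 12 Wnt targets 2 (16.7%) rose and 2 (16.7%) fell (median 0.14). Lgr5, a Wnt-induced receptor gene of stem cells in adult epithelia, was at 6.56, 6.01 and 3.63 CPM on day 4, against 0, 0.472 and 0.831 CPM on day 1 (3.63 ± 0.79, adjusted p = 0.00323). Ccnd1, the cyclin D1 gene, was at 20.7, 24.9 and 30.1 CPM on day 4, against 125, 92.7 and 81.4 CPM on day 1 (-1.98 ± 0.26, adjusted p = 2.88e-05).

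Immediate early genes, which respond to growth factors and handling within minutes, were lower more often than higher, at 7 against 4 of 24 (median -0.42). The shares were 29.2% lower and 16.7% higher, beside 10.6% and 9.66% over all genes. Myc was at 5.90, 7.92 and 7.12 CPM on day 4, against 36.0, 36.8 and 26.0 CPM on day 1 (-2.23 ± 0.35, adjusted p = 0.000199). Egr1, a zinc-finger factor gene downstream of ERK, was at 6.03, 5.74 and 5.08 CPM on day 4, against 21.1, 25.5 and 23.7 CPM on day 1 (-2.05 ± 0.35, adjusted p = 0.000446). Fosl1, an AP-1 component gene also active in fibroblasts, fell by 3.61 ± 0.48 (adjusted p = 4.29e-05). Their groups were well apart. The 4 higher members numbered 1 or 2 without day 4 replicate 1, day 4 replicate 2, day 1 replicate 1 or day 1 replicate 3.

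Of 27 S phase genes none rose and 5 fell, or 18.5% beside 10.6% over all genes (median -0.31), with 3 lower when day 4 replicate 1, day 4 replicate 3, day 1 replicate 1 or day 1 replicate 2 was left out, and between 8 and 10 lower with RLE factors, total counts, DESeq2, GC trends removed or the 6 libraries alone. Chaf1b, a subunit gene of the factor that places histones on new DNA, was at 24.1, 30.9 and 44.6 CPM on day 4, against 118, 119 and 105 CPM on day 1 (-1.78 ± 0.32, adjusted p = 0.000715). Ccne1, the cyclin E1 gene, was at 92.9, 111 and 123 CPM on day 4, against 262, 291 and 187 CPM on day 1 (-1.18 ± 0.29, adjusted p = 0.00736). In the G2 and M phase list 3 of 29 genes (10.3%) rose and 4 (13.8%) fell, near the shares over all genes (median 0.09), and none rose without day 4 replicate 1 or 2 or day 1 replicate 1 or 2, with GC trends removed, with total counts or with no filter. Kif20a, a kinesin gene of cytokinesis, was at 11.7, 22.8 and 40.1 CPM on day 4, against 104, 93.9 and 70.6 CPM on day 1 (-1.85 ± 0.41, adjusted p = 0.00375). The mitotic kinase gene Aurka fell by 1.05 ± 0.27 (adjusted p = 0.00964), and the number of genes lower was 2 without day 4 replicate 1.

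The p53 list was divided, with 6 of 30 genes (20%) higher and 4 (13.3%) lower, beside 9.66% and 10.6% over all genes. Its median was 0.09, and 2 genes were lower without day 1 replicate 2. Trp53 itself was at 74.6, 118 and 146 CPM on day 4, against 370, 333 and 298 CPM on day 1 (-1.56 ± 0.36, adjusted p = 0.00515). Mdm2, which encodes the ubiquitin ligase that p53 induces and that degrades it, was at 283, 232 and 263 CPM on day 4, against 197, 218 and 208 CPM on day 1 (0.32 ± 0.20, adjusted p = 0.273). Cdkn1a, the gene of the inhibitor p21, was at 134, 107 and 152 CPM on day 4, against 192, 207 and 167 CPM on day 1 (-0.53 ± 0.32, adjusted p = 0.251). Neither passed, although the libraries of each did not overlap, and Cdkn1a overlaps AC167363.2 and passed in a fit of the 6 libraries alone. Apaf1, the scaffold gene of the apoptosome, was at 54.6, 47.8 and 45.9 CPM on day 4, against 19.2, 17.5 and 18.3 CPM on day 1 (1.43 ± 0.22, adjusted p = 0.000179). Zmat3, an RNA-binding p53 target gene, rose by 1.26 ± 0.25 (adjusted p = 0.00159), and Phlda3, an inhibitor of AKT, fell by 2.20 ± 0.34 (adjusted p = 0.00021). Of 21 apoptosis regulators 3 (14.3%) rose and 2 (9.52%) fell, beside 9.66% and 10.6% over all genes (median -0.08). Bad, a death-promoting gene of the BCL2 family, fell (-1.07 ± 0.26, adjusted p = 0.00641). The number higher was 1 without day 4 replicate 1, day 4 replicate 3 or day 1 replicate 2. The integrated stress response was divided likewise, with 6 of 23 higher and 4 lower (median -0.12), and 3 higher and 2 lower without day 1 replicate 1 and 2 lower without day 4 replicate 1. Ddit3, the gene of the factor CHOP, was at 59.4, 30.5 and 52.3 CPM on day 4, against 22.5, 22.2 and 22.6 CPM on day 1 (1.08 ± 0.25, adjusted p = 0.00488). Slc7a11, the cystine importer gene, was at 7.87, 1.37 and 1.31 CPM on day 4, against 32.0, 41.3 and 17.6 CPM on day 1 (-3.07 ± 0.57, adjusted p = 0.00124).

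PlaB binds the SF3B complex, and genes of the spliceosome were among those lower on day 4. Of 47 tested splicing factors 4 (8.51%) rose and 10 (21.3%) fell, beside 9.66% and 10.6% over all genes (median -0.13). Only 6 were lower without day 4 replicate 1, day 1 replicate 1 or day 1 replicate 2. The number higher was 0 to 2 without day 4 replicate 1 or 2 or day 1 replicate 1 or 2. Sf3b4, an SF3B subunit gene, was at 9.84, 9.01 and 11.3 CPM on day 4, against 128, 141 and 113 CPM on day 1 (-3.66 ± 0.39, adjusted p = 4.07e-06). Snrpc, the gene of the U1 protein that contacts the start of the intron, was at 26.1, 25.1 and 28.9 CPM on day 4, against 162, 156 and 191 CPM on day 1 (-2.67 ± 0.25, adjusted p = 9.67e-07). Both were many times lower on day 4 in every library, with little spread. No other SF3B subunit gene in the list was called lower. Sf3b6 rose by 0.81 (adjusted p = 0.0262). Sf3b1 (0.33), Sf3b2 (-0.47), Sf3b3 (0.34), Sf3b5 (-0.39) and Phf5a (-0.01) did not pass. Srsf9, an SR protein gene, fell by 1.52 ± 0.25 (adjusted p = 0.0003), and Snrpa, another U1 protein gene, fell by 1.16 ± 0.21 (adjusted p = 0.000811). Both days carry the PlaB label, so these values do not compare treated with untreated cells.

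Of 21 tested imprinted genes 7 rose and 2 fell (median 0.76). Cdkn1c, the maternally expressed gene of the cell-cycle inhibitor p57, was at 51.4, 35.0 and 35.9 CPM on day 4, against 4.25, 7.78 and 3.05 CPM on day 1 (3.08 ± 0.31, adjusted p = 2.46e-06). Grb10, an adaptor gene that restrains growth factor signalling, was at 98.9, 72.4 and 88.6 CPM on day 4, against 41.5, 46.0 and 35.4 CPM on day 1 (1.08 ± 0.20, adjusted p = 0.000876). Snrpn, a paternally expressed gene of a splicing protein, was at 21.6, 26.5 and 47.2 CPM on day 4, against 72.7, 75.9 and 93.4 CPM on day 1 (-1.35 ± 0.27, adjusted p = 0.00174). None of these groups overlapped. Of 14 genes of the DNA methylation machinery 1 (7.14%) rose and 2 (14.3%) fell, beside 9.66% and 10.6% over all genes (median 0.07). Tet3, which encodes an oxidase of 5-methylcytosine, was at 13.4, 12.4 and 10.02 CPM on day 4, against 3.37, 3.30 and 2.63 CPM on day 1 (1.94 ± 0.30, adjusted p = 0.000199). Zfp57, which protects imprints, fell by 1.38 ± 0.25 (adjusted p = 0.000819), and Mbd3, of the NuRD complex, fell by 1.26 ± 0.28 (adjusted p = 0.00391). In the list of MHC class I presentation 1 of 12 genes (8.33%) rose and 2 (16.7%) fell (median 0.45). B2m, the light chain gene that feeder cells also express, was at 360, 184 and 217 CPM on day 4, against 584, 726 and 548 CPM on day 1 (-1.29 ± 0.28, adjusted p = 0.00296).

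The X chromosome was examined after several of the largest increases, among them Rhox6, Rhox9, Arhgef6, Nxf7 and Zxdb, were seen to lie on it, so its values are a description. Of 559 tested X-linked genes 109 (19.5%) were higher and 28 (5.01%) lower, with a median log2 fold change of 0.26. On the 19 autosomes the share of higher genes ran between 6.06% and 12.0%, and the median between -0.14 and 0.13. The autosomal share of lower genes ran between 4.96% and 13.4%, a range that holds the share on the X chromosome. With GC trends removed, 18.1% of X-linked genes were higher and 7.87% lower, with a median of 0.14. The median level of X-linked genes relative to autosomal ones, as a log2 deviation, was 0.07, 0.01 and -0.04 on day 4, against -0.27, -0.25 and -0.12 on day 1, without overlap. Its daily means over the whole culture were -0.22, -0.06, 0.17, 0.01 and 0.12 for days 1, 2, 3, 4 and 5. Xist, whose RNA silences an X chromosome in female cells, was at 13.0, 21.4 and 17.1 CPM on day 4, against 32.3, 43.2 and 21.3 CPM on day 1 (-0.90 ± 0.31, adjusted p = 0.0426). Its highest day 4 library lay just above its lowest day 1 library, and the call ended in 5 alternatives, among them leaving out day 4 replicate 1 or 3 or day 1 replicate 1 or 2. The fibroblast markers differed between the same groups, and their part in the X-linked values was not tested.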

How the data were processed

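The authors deposited raw counts of reads per gene symbol for 15 blastoid libraries, of which the 6 of days 4 and 1 are compared here. Alignment to mm10 with STAR 2.7.10b and counting with HTSeq 0.13.5 come per the submitters' processing notes. The sources used here give neither strand setting nor annotation release. Columns were matched to samples by title, because the labels' description field assigns the blastoid samples to the table that holds the 2D columns and the 2D samples to the blastoid table. Of 54352 symbols, 53663 matched 1 gene of GENCODE M21, which gave coordinates (GRCm38), GC content and length. Genes were kept by filterByExpr (minimum count 10, minimum total 15) and tested with edgeR 4.0.16 (TMM, robust quasi-likelihood F-test, all 15 libraries in 1 fit, contrast day 4 minus day 1, Benjamini-Hochberg adjustment over 15121 genes, threshold 0.05). The biological coefficient of variation was 0.258. CPM values are scaled by TMM within that fit. Single values per library were compared by exact permutation. The 35 gene lists, the compared days and the rules were chosen with earlier results of these data known; more than 1 list holds some genes. Named genes were the 10 with the largest change and the 8 with the smallest adjusted p per direction (non-overlapping libraries, at least 10 CPM in the higher group, no numbered gene models), the 5 members with the smallest adjusted p in each list, and a fixed set of lineage genes. Y-linked genes, Xist, Slc2a1, Hk2, Pgk1 and Hk1 were chosen after their values were seen. Counting error is not the only error, since PCR copies without molecular identifiers are not independent molecules. The method was tested on simulated data. Alternatives were RLE factors, total counts, DESeq2 1.42.0, no filter, the 6 libraries alone, a block for the replicate number, removal of GC trends, thinning to the smallest total and leaving out each library. R 4.3.3 and Python 3.11.15 were used. Some results are not reported here.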

Additional observations from a re-analysis of the deposited data

How the results depend on the processing

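No gene called higher or lower was called in the opposite direction under any of the 14 alternatives. Besides leaving out a library, the count of higher genes ran from 1037 with total counts to 1873 in a fit of the 6 libraries alone, and that of lower genes from 1371 with the replicate block to 2117 in that fit. Leaving out each library in turn gave 615 to 1240 higher and 950 to 1717 lower genes, and 499 to 871 higher by at least 2-fold. Thinning counts to the smallest total gave 1251 higher and 1432 lower genes, DESeq2 1410 and 2090, and RLE factors 1209 and 1842.

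The deviations of same-numbered libraries had correlations of -0.03, -0.09 and -0.11, so no positive pairing by replicate number was seen. These are deviations from means of 3 libraries, and they cannot show whether same-numbered samples shared a culture. The replicate block gave 1211 higher and 1371 lower genes and ended the calls of Cldn4, Lamb1, Fcer1g and Xist among the named genes other than keratins. Of 159 named genes 142 were called, and 121 of these in every alternative. Values that did not pass and changed sign were those of Hand1 (0.000363 with GC trends removed and -0.79 to 0.49 over the left-out libraries) and Tdgf1 (-0.32 to 0.074 over the left-out libraries). The cause was not tested.

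With 3 libraries a day, exact tests of single values cannot go below 0.1. The shallowest library, day 1 replicate 2, held 3684787 counts, so genes near 1 CPM rest on a handful of reads. Cdx2, Elf5, Gata4, Sox17 and Foxa2 had too few counts to enter the test, and nothing is said of their differences.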
